A study of Mus musculus with 8 samples.

Results

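The genes described here are 9 genes of the oligodendrocyte lineage, Olig1, Olig2, Nkx2-2, Sox10, Pdgfra, Cspg4, Ptprz1, Cnp and Mbp, taken from the deposited table by their symbols. They make up 9 of its 20793 rows, and each symbol had 1 row. RNA was measured in 8 libraries of cultured neural progenitors from the brain of FvB/C57BL/6 mice. The cells carried hairpins labelled non-targeted (NT), FUBP1-targeted or CIC-targeted, delivered by lentivirus with 3 days of puromycin selection, a treatment that the protocol spells out only for the FUBP1 hairpins. FUBP1 is a regulator of transcription and splicing that binds single-stranded nucleic acid, and CIC (capicua) is a transcriptional repressor. Proliferating cells were in N2 medium supplemented with EGF and bFGF, 20 ng/ml each, and differentiating cells had spent 5 days in neurobasal medium with B27 and without a stated growth factor. Each state had 2 NT libraries (TRC and GFP when proliferating, 7 and GFP-D when differentiating) and 1 library for each targeted gene (FUBP1, CIC, FUBP1-D and CIC-D, where D marks differentiation). The labels give no age, no number of animals or hairpins, and nothing that says whether the NT libraries were separate cultures. A p-value here sets a difference against the scatter of these libraries, and that scatter may be technical. In tests over all arms the scatter also holds differences between arms in their change with state. The series concerns FUBP1 and the terminal differentiation of such cells, and the comparisons below ask how far genes of one of their possible fates moved.

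Oligodendrocytes make myelin, the membrane sheath around axons of the central nervous system, and arise from precursor cells that neural progenitors can form in culture. The transcription factors Olig2, Olig1, Nkx2-2 and Sox10 specify the lineage and drive its later steps, and Olig2 and Olig1 are also used by dividing progenitors. Precursor cells carry the PDGF receptor alpha (Pdgfra), the proteoglycan NG2 (Cspg4) and the receptor phosphatase Ptprz1, and they switch on myelin genes such as Cnp and Mbp when they stop dividing and mature.

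Values are FPKM, fragments scaled by transcript length and library size, so levels can be set side by side between genes. Fold changes are differences of log2(FPKM + 1), which understate the change of low genes. Tests were fitted with limma over the 11968 rows that reached 1 FPKM in at least 2 libraries, and the adjusted p is Benjamini-Hochberg over those rows with a threshold of 0.05. In all, 8 of the 9 genes passed that filter. Sox10 did not, and Cspg4 and Mbp passed it through 2 libraries only. How many fragments each library held is unknown.

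The cells' label was checked against marker genes. Of 12 neural progenitor markers 10 were kept, with summed levels of 3550 to 5240 FPKM in the proliferating libraries and 3402 to 4917 FPKM in the differentiating ones. Summed cycling markers ranged from 308 to 752 FPKM in the proliferating and from 15.5 to 58.7 FPKM in the differentiating libraries. Summed astrocyte markers (9 of 10 kept) ranged from 146 to 346 FPKM and from 564 to 1064 FPKM, and summed ependymal markers (4 of 6 kept) from 4.61 to 14.3 FPKM and from 46.3 to 71.6 FPKM. The cycling, astrocyte and ependymal sums did not overlap between the states, while those of neural progenitors did. Within the progenitor list Fabp7 fell on differentiation (log2 change -2.82), and Slc1a3 (1.97), Msi1 (1.29) and Sox1 (1.11) rose. The part of such shifts in the results on differentiation below was not tested. Neuronal markers (5 of 10 kept, with Rbfox3, Snap25 and Syt1 under 1 FPKM everywhere) summed to between 57.4 and 568 FPKM in proliferating and between 40.0 and 72.0 FPKM in differentiating libraries. These sums overlapped, with 568 FPKM in TRC and 266 in FUBP1 but 57.4 in GFP and 62.9 in CIC. Of the kept neuronal markers only Tubb3 passed on differentiation, and it rose (log2 change 1.205, limma adjusted p = 0.0385). Map2 (0.09), Stmn2 (0.66), Syn1 (-0.40) and Nefl (-3.17) did not pass. In a bulk library, fewer cells of a type and less RNA per cell cannot be told apart. The targeted genes bear on the labels. Cic was lowest in the library labelled CIC (13.3 FPKM, against 39.4 in TRC and 33.8 in GFP) and in CIC-D (25.6 FPKM, against 42.0 in 7 and 35.3 in GFP-D). Fubp1 was lowest in an NT library, GFP (12.4 FPKM), and stood at 34.8 FPKM in the library labelled FUBP1, so every direction given for the FUBP1 hairpin is that of the label.

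Olig2, the basic helix-loop-helix factor that specifies the lineage and sustains progenitor division, stood at 339 FPKM in TRC, 350 in GFP, 397 in FUBP1 and 281 in CIC. In the differentiating libraries it stood at 88.0 FPKM in 7, 112 in GFP-D, 130 in CIC-D and 180 in FUBP1-D (chromosome 16, 91225795 to 91228922, mm9). All 4 differentiating libraries lay below all 4 proliferating ones. Olig2 fell by 1.45 on the log2 scale over the 3 arms (SE 0.19, limma adjusted p = 0.002), from 342 ± 47.9 to 128 ± 38.8 FPKM (SD, n = 4 and 4). The decrease passed the test in all 17 alternatives tried, with values between -1.57 and -1.12.

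Olig1, its neighbour and close relative, which acts later in maturation and myelin repair, had the highest level of the 9 genes in every library except 7, where Cnp was higher. Its levels were 910 FPKM in TRC, 1024 in GFP, 969 in FUBP1 and 382 in CIC. After differentiation they were 197 FPKM in 7, 303 in GFP-D, 349 in CIC-D and 673 in FUBP1-D. The NT libraries of the states were far apart, while FUBP1-D stayed above CIC, so the states overlapped. Olig1 fell by 1.15 on the log2 scale (SE 0.36, adjusted p = 0.038), from 821 ± 296 to 381 ± 205 FPKM (SD, n = 4 and 4). This call held in only 8 of 17 alternatives. It was lost when any 1 of TRC, GFP, FUBP1, 7, GFP-D or FUBP1-D was left out, with no filter on low values, with group means, and with quantile normalization (-0.46, adjusted p = 0.314).

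Olig1 and Olig2 lie on the same chromosome with 41091 bases between them and no other row of the table in that interval (Olig1 at chromosome 16, 91270014 to 91272184, mm9). The ratio of Olig1 to Olig2, per length, was 2.68 in TRC, 2.92 in GFP and 2.44 in FUBP1, and 2.24 in 7, 2.70 in GFP-D and 2.68 in CIC-D. The library labelled CIC stood apart below these with 1.36, and FUBP1-D above them with 3.75. Across all kept rows, Olig2 had the third smallest distance from Olig1 when profiles over the 8 libraries were centred and compared (root mean square difference 0.39 log2 units). Only Xkr5 (0.35) and Dhx9 (0.38) were closer.

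Nkx2-2, a homeodomain factor that promotes the start of oligodendrocyte maturation, was present at lower levels, with 10.9 FPKM in TRC, 7.61 in GFP, 18.2 in FUBP1 and 10.1 in CIC. It stood at 7.60 FPKM in 7, 3.71 in GFP-D, 8.80 in CIC-D and 6.12 in FUBP1-D (chromosome 2, 147003282 to 147012138, mm9). CIC-D fell within the proliferating range, and 7 lay just below its lowest value, that of GFP. Its difference of -0.74 (SE 0.29, 95% interval -1.41 to -0.06, adjusted p = 0.0782) did not pass the test, though it did under quantile normalization and with GFP and GFP-D as an arm of their own. An antisense transcript is known at this locus, and no source used here states if counting used strand, so reads from the pair cannot be told apart.

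Sox10, the factor that binds and activates the myelin genes, was listed at 0 in TRC, FUBP1, 7, GFP-D and CIC-D. The other libraries gave 0.0116 FPKM in GFP, 0.0119 in CIC and 0.0329 in FUBP1-D (chromosome 15, 78985343 to 78994920, mm9). No library came near 1 FPKM, and no fold change is given for levels this low. Olig2 thus stood at 88.0 FPKM or more in libraries where Sox10 was at or near 0.

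**Figure D1:**
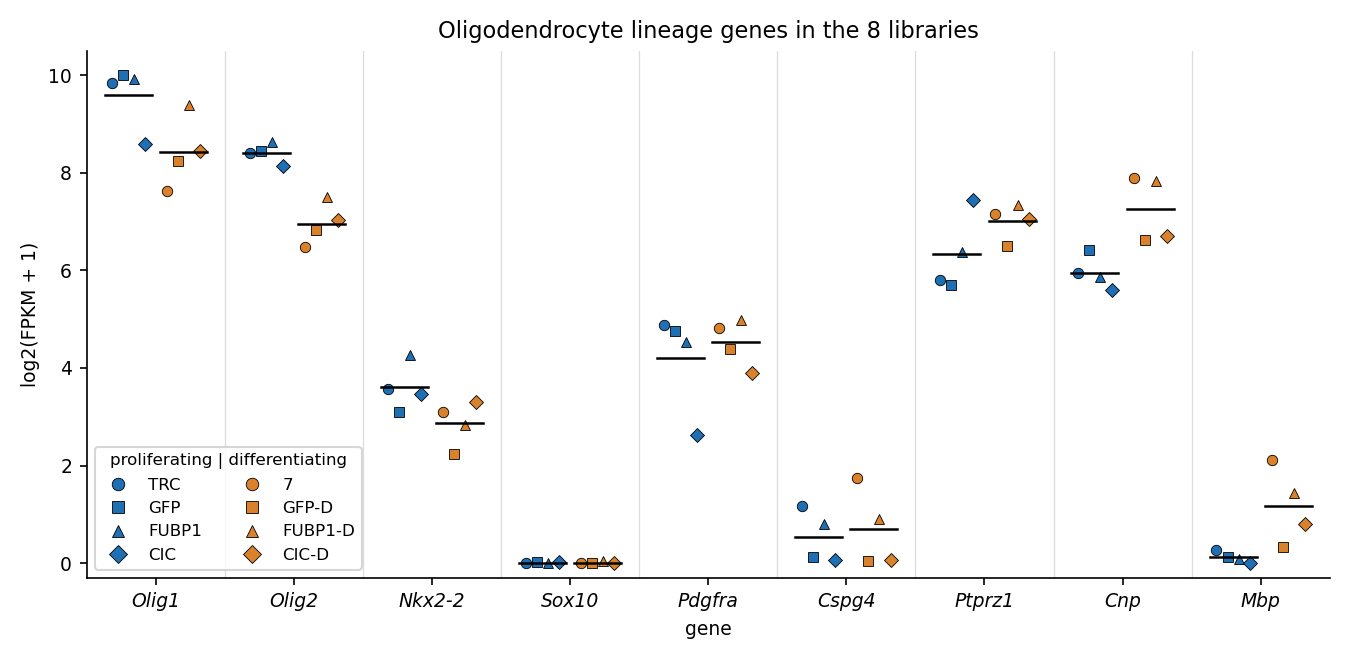
Levels of the 9 oligodendrocyte lineage genes on the log2(FPKM + 1) axis, 1 symbol per library (blue proliferating, orange differentiating, shapes for the libraries of the key), with a bar at the mean of the 4 libraries of a state on that scale. All differentiating libraries lie below all proliferating ones for Olig2 and above them for Cnp and Mbp, Pdgfra is lowest in CIC, and Sox10 stays at or near 0.

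Pdgfra, the receptor through which PDGF keeps precursors dividing, stood at 28.6 FPKM in TRC, 25.9 in GFP, 22.3 in FUBP1 and 5.17 in CIC. After differentiation it stood at 27.4 FPKM in 7, 20.0 in GFP-D, 13.9 in CIC-D and 30.7 in FUBP1-D (chromosome 5, 75548316 to 75594229, mm9). Both libraries labelled CIC were the lowest of their state, and the other 6 lay between 20.0 and 30.7 FPKM. The difference between states was 0.33 (SE 0.28, 95% interval -0.32 to 0.97, adjusted p = 0.376). Pdgfra also marks fibroblasts. Col1a1, Col1a2, Lum and Dpt, which define them, were under 1 FPKM in every library, and 2 of the 10 genes of that marker list, Pdgfra itself among the 10, were kept. The list summed to between 11.1 and 41.3 FPKM in proliferating and between 15.3 and 34.0 FPKM in differentiating libraries. Pdgfra itself made up 28.6 of 41.3 FPKM in TRC, 5.17 of 11.1 in CIC and 13.9 of 15.3 in CIC-D. The sum thus says little about fibroblasts. Fbln1, the other kept gene, fell on differentiation (log2 change -2.33, SE 0.32, limma adjusted p = 0.00223). Col3a1 passed 1 FPKM only in CIC (1.29).

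Cspg4, which encodes the surface proteoglycan NG2, reached 1 FPKM only in the NT libraries TRC (1.25) and 7 (2.37). FUBP1 held 0.737 FPKM and FUBP1-D 0.880 FPKM. The other 4 libraries lay under 0.1 FPKM, with 0.0905 in GFP, 0.0499 in CIC, 0.0308 in GFP-D and 0.0450 in CIC-D (chromosome 9, 56712911 to 56747677, mm9). The split ran between sets of libraries that each held both states, and not between the states. The difference between states was 0.15 (SE 0.42, adjusted p = 0.793), and it turned to -0.21 without the library 7. The genes with the closest profiles had the same split: Car12, a carbonic anhydrase (0.21 log2 units), stood at 1.39 FPKM in TRC and 1.41 in 7 and was listed at 0 in GFP and GFP-D. Pericytes also carry NG2. Of 11 pericyte and smooth muscle markers 2 were kept, Notch3 and Tagln. Notch3 rose on differentiation (log2 change 1.11, SE 0.37, limma adjusted p = 0.0469), and Tagln did not pass (0.47, adjusted p = 0.144). Rgs5, Kcnj8 and Abcc9 were under 1 FPKM everywhere. The summed list ranged from 2.73 to 12.4 FPKM in proliferating and from 11.1 to 24.03 FPKM in differentiating libraries.

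Ptprz1, a receptor phosphatase of precursors that radial glia and astrocytes also carry, stood at 54.5 FPKM in TRC, 50.8 in GFP, 82.6 in FUBP1 and 173 in CIC. After differentiation it stood at 141 FPKM in 7, 89.7 in GFP-D, 132 in CIC-D and 161 in FUBP1-D (chromosome 6, 22825502 to 23002916, mm9). The library labelled CIC held the highest level of all 8, and without it each differentiating library lay above each proliferating one. The difference between states was 0.68 (SE 0.29, 95% interval 0.01 to 1.36, adjusted p = 0.0971). It was 1.04 and passed the test without CIC, and likewise without CIC-D. Either fit takes the estimate from the NT and FUBP1 arms alone, so these are not separate results. The difference also passed under quantile normalization.

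Cnp, an enzyme of the myelin membrane that precursors already make at a lower level, stood at 60.6 FPKM in TRC, 84.0 in GFP, 56.9 in FUBP1 and 47.3 in CIC. After differentiation it stood at 237 FPKM in 7, 98.2 in GFP-D, 103 in CIC-D and 228 in FUBP1-D (chromosome 11, 100436253 to 100443053, mm9). All 4 differentiating libraries lay above all 4 proliferating ones. They formed a high pair, 7 and FUBP1-D, and a low pair, GFP-D and CIC-D, so the NT libraries 7 and GFP-D differed by 1.26 log2 units from each other. Cnp rose by 1.32 on the log2 scale (SE 0.31, adjusted p = 0.0154), from 62.2 ± 15.6 to 167 ± 76.1 FPKM (SD, n = 4 and 4). The call was lost without FUBP1 (1.09) and likewise without FUBP1-D. Either fit takes the estimate from the NT and CIC arms alone, so these are not separate results.

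To let the Olig2, Cnp and Pdgfra genes be read beside their levels, the 250 bases before the RefSeq transcription start (GRCm38.p6, plus strand for each, 5′ to 3′) are given here. Olig2 is shown because it was lower, and Cnp because it was higher, in the differentiating cells of every arm, and Pdgfra because it was lowest in the libraries labelled CIC. Capitals mark matches to CANNTG, the E-box core that helix-loop-helix factors such as Olig2 bind, and to TATAAA, the TATA box.
Olig2 (chr16:91225300-91225549): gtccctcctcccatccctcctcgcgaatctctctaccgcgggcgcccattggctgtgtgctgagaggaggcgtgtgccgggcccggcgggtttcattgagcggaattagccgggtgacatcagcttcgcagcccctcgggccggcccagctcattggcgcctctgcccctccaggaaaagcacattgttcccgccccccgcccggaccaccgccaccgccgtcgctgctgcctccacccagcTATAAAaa
Cnp (chr11:100574689-100574938): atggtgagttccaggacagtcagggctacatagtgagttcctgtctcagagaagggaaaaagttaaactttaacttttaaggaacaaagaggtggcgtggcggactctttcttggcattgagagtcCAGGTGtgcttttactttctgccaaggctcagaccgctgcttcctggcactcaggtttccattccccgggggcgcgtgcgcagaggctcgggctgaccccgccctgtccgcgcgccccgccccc
Pdgfra (chr5:75152001-75152250): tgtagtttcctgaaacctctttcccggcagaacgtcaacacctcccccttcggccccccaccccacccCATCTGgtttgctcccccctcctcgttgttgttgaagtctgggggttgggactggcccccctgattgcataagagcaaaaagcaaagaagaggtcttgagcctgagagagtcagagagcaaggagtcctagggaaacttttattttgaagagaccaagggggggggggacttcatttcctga

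RefSeq windows of this length were used for 6 of the 9 genes, and any window of Mbp was left out by choice. In these and in 32851 windows of all genes, 6 motifs were searched on both strands. CANNTG occurs in 66.2% of all windows, so its presence in those of Cnp, Pdgfra and Nkx2-2 is common. It has no match in the Olig2 window. The TATAAA of Olig2 begins 8 bases before the annotated start, and 12.4% of all windows hold that motif. GGGCGG, the GC box, is in 32.7% of windows and has matches in those of Olig2, Cnp, Nkx2-2, Cspg4 and Ptprz1. ATTGG, the inverted CCAAT box, is in 33.8% of windows and lies in the Olig2 window 203 and 98 bases before the start. ACAAAG, a core of SOX sites, is in 16.5% of windows and lies 167 bases before the Cnp start. TGAATGAA, a form of the octamer that CIC binds, is in 1.08% of all windows and in none of the 6. Other forms of that octamer were not searched, so their absence is not shown. These matches describe letters in 250 bases and say nothing of binding.

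Across the 8 genes that passed the filter, 3 changed between the states over all arms (1 higher, Cnp, and 2 lower, Olig1 and Olig2), which is 37.5%. Of all rows tested, 38.8% were called (21.2% higher and 17.7% lower), so the share among these genes is near the background. Their median difference was 0.24 log2 units, beside 0.09 over all rows tested. Olig2, Cnp and Mbp did not overlap between the 4 and 4 libraries, and 38% of all rows did not overlap either. Mbp passed the filter only through 2 differentiating libraries, so the filter favours such a difference.

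The order of the levels also changed. In the proliferating libraries the mean levels ran Olig1, Olig2, Ptprz1, Cnp, Pdgfra, Nkx2-2, Cspg4, Mbp and Sox10 from high to low. The ranges over libraries overlapped between Olig1 and Olig2, Ptprz1 and Cnp, Pdgfra and Nkx2-2, Cspg4 and Mbp, and Mbp and Sox10. In the differentiating libraries the order was Olig1, Cnp, Ptprz1, Olig2, Pdgfra, Nkx2-2, Mbp, Cspg4 and Sox10. There, neighbours in the order overlapped except Olig2 and Pdgfra, Pdgfra and Nkx2-2, and Nkx2-2 and Mbp. Among the 20793 rows, Olig2 ranked between 188 (FUBP1) and 834 (7), and Cnp between 2068 (CIC) and 238 (7).

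Mbp, the myelin basic protein that compacts the sheath, was low everywhere. It stood at 0.206 FPKM in TRC, 0.0870 in GFP, 0.0678 in FUBP1 and 0.00714 in CIC. After differentiation it stood at 3.34 FPKM in 7, 0.262 in GFP-D, 0.741 in CIC-D and 1.70 in FUBP1-D. All 4 differentiating libraries lay above all 4 proliferating ones, but 7 held 3.34 and GFP-D 0.262 although both are NT. The difference was 1.05 (SE 0.39, adjusted p = 0.0651). Mbp entered the test only through the differentiating libraries 7 and FUBP1-D, so the filter favours this direction. The alternatives that passed share that limit: a pseudocount of 0.1 (2.71), leaving out GFP-D, and GFP and GFP-D as an arm of their own. With the pseudocount of 0.1 the difference rests on proliferating values of 0.206 FPKM or less. Cnp and Mbp had like profiles, 0.30 log2 units apart over the 8 libraries. The Mbp locus also yields golli transcripts from an upstream promoter, and the table has 1 value for them all.

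Between the states within the NT arm the directions were the same as over all arms for Olig1, Olig2, Nkx2-2, Cnp, Mbp, Ptprz1 and Cspg4 and opposite for Pdgfra, and none of the 8 genes passed the test (3 had an unadjusted limma p under 0.05). Of all rows, 1.46% passed. Olig1 went from 967 ± 80.0 to 250 ± 74.8 FPKM (SD, n = 2 and 2), a log2 difference of -1.98 (SE 0.33, adjusted p = 0.0563). Olig2 went from 345 ± 7.84 to 100.03 ± 16.96 FPKM, a difference of -1.78 (SE 0.27, adjusted p = 0.0513). Ptprz1 differed by 1.08 (SE 0.32, adjusted p = 0.121), Cnp by 1.09 (SE 0.48, adjusted p = 0.223), Mbp by 1.03 (SE 0.65, adjusted p = 0.357), Nkx2-2 by -0.67 (SE 0.41, adjusted p = 0.34), Pdgfra by -0.21 (SE 0.29, adjusted p = 0.668) and Cspg4 by 0.25 (SE 0.71, adjusted p = 0.839). The spread within the NT pairs sets these errors. TRC and GFP were more than 1 log2 unit apart for Cspg4 alone of the 8 genes, against 16.2% of all rows. The libraries 7 and GFP-D were that far apart for Cspg4 (1.71), Cnp (1.26) and Mbp (1.78), against 9.56% of all rows, each time with 7 higher.

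**Figure D2:**
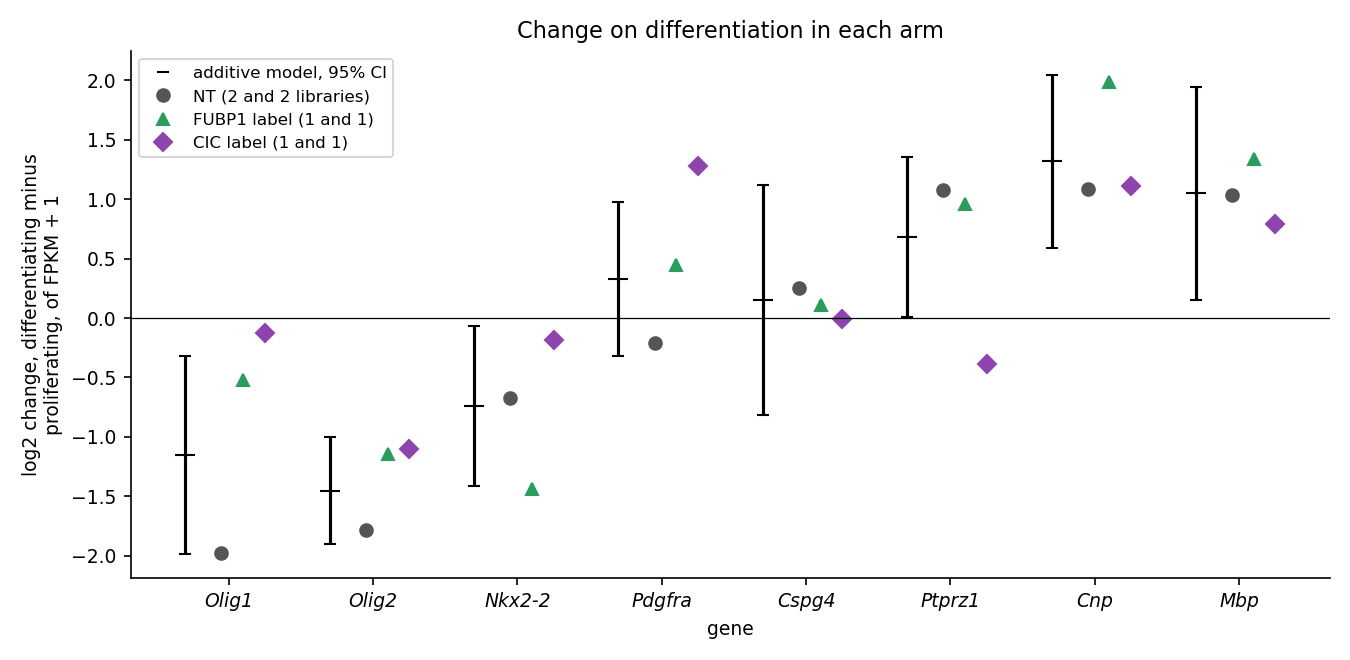
Difference between differentiating and proliferating libraries in log2(FPKM + 1) for the 8 genes that passed the filter; circles are NT (2 and 2 libraries), triangles the FUBP1 label and diamonds the CIC label (1 and 1 library each), and the black bars show the additive estimate with its 95% interval. Olig2 lies below 0 and Cnp and Mbp above 0 in all arms, while Olig1 goes from -1.98 in NT to -0.13 in CIC, and Ptprz1 and Pdgfra differ in sign between arms.

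With the FUBP1 label, none of the 8 genes passed the test over both states, and none had an unadjusted limma p under 0.05. Of all 11968 rows 0% passed, and 256 had an unadjusted p under 0.05. The differences from NT were 0.73 for Olig1 (95% interval -0.29 to 1.75), 0.53 for Olig2 (-0.02 to 1.08), 0.55 for Nkx2-2 (-0.28 to 1.37) and 0.58 for Ptprz1 (-0.25 to 1.41), each with an adjusted p of 0.999. Cnp (0.13), Cspg4 (0.08), Mbp (0.05) and Pdgfra (0.05) lay nearer to 0, and their sign depended on the setting or on 1 library. The median was 0.33 log2 units, beside 0.02 over all rows tested. These intervals hold changes of 1 log2 unit for the transcription factors, so they do not show that the arms were alike.

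On the log2(FPKM + 1) scale, Olig1 in FUBP1-D was the gene farthest outside the range of both NT libraries in the FUBP1 arm. It stood at 673 FPKM, which was 342% of 7 and 222% of GFP-D. Olig2 in FUBP1-D was 204% of 7 and 160.3% of GFP-D. In FUBP1-D, Olig1 was the only 1 of 8 genes more than 1 log2 unit outside both NT libraries of its state, as were 2.01% of all rows. In the proliferating library labelled FUBP1 there was none of the 8, and 1.12% of all rows. Over the arm, Olig1 differed by -0.53 between states, beside -1.98 in NT. The difference of those changes was 1.45 (SE 0.57, limma adjusted p = 1). Olig1 was the 1 of 8 genes with an unadjusted p under 0.05 there, and of all rows 0% passed, with 99 at such a p.

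With the CIC label, again none of the 8 genes passed over both states, while 2 had an unadjusted limma p under 0.05, and 0.109% of all rows passed (13 genes). Pdgfra differed from NT by -1.45 (SE 0.34, 95% interval -2.25 to -0.66, adjusted p = 0.24). Ptprz1 differed by 0.96 (SE 0.35, 95% interval 0.14 to 1.79, adjusted p = 0.387). Cspg4 (-0.71, adjusted p = 0.604), Cnp (-0.57, adjusted p = 0.579), Olig1 (-0.41, adjusted p = 0.745), Nkx2-2 (0.38, adjusted p = 0.7), Mbp (-0.31, adjusted p = 0.828) and Olig2 (0.05, adjusted p = 0.949) completed the set. The median was -0.36 log2 units, beside -0.04 over all rows tested.

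For Pdgfra, Olig1 and Ptprz1 the distance between CIC and NT was larger in the proliferating library. Olig2, Nkx2-2, Cspg4 and Mbp lay farther from the NT mean in CIC-D (0.39, 0.62, -0.84 and -0.43 log2 units) than in CIC (-0.29, 0.14, -0.58 and -0.18), and Cnp lay about as far in both (-0.56 and -0.58). In the proliferating library Pdgfra was 18.1% of TRC and 19.97% of GFP, Olig1 was 42.0% of TRC and 37.3% of GFP, and Ptprz1 was 318% of TRC and 341% of GFP. These 3 of 8 genes were more than 1 log2 unit outside both NT libraries, as were 9.27% of all rows. In CIC-D none of the 8 was that far out, and 2.83% of all rows were. Pdgfra was there 50.8% of 7 and 69.5% of GFP-D. The change on differentiation in the CIC arm was -0.13 for Olig1, 1.27 for Pdgfra and -0.39 for Ptprz1. Its difference from the NT change was 1.85 for Olig1 (SE 0.57), 1.48 for Pdgfra (SE 0.50) and -1.47 for Ptprz1 (SE 0.55), each with a limma adjusted p of 0.998. These were the 3 of 8 genes with an unadjusted p under 0.05, and of all rows 0% passed, with 512 at such a p. Each rests on 1 library per state in the CIC arm, assumed to vary like an NT library.

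**Figure D3:**
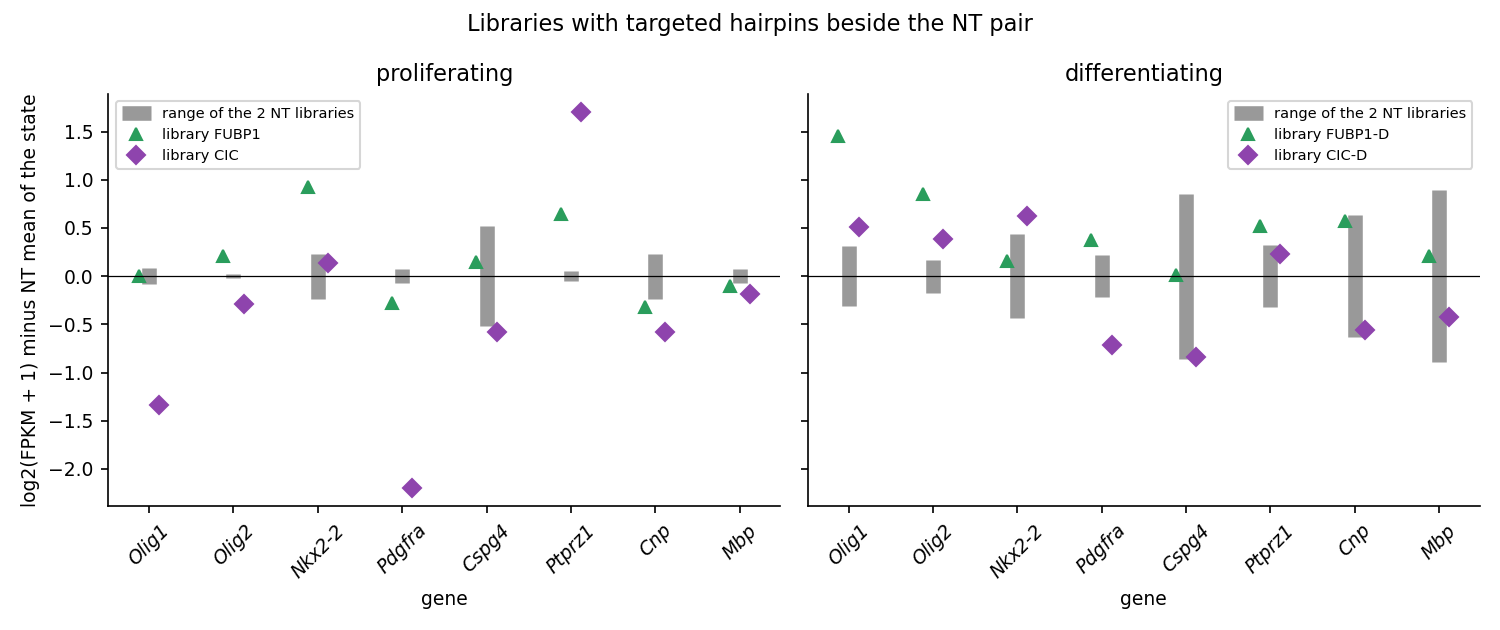
Each library with a targeted hairpin relative to the NT mean of its state, in log2(FPKM + 1), for the 8 genes that passed the filter, with proliferating libraries left and differentiating ones right; gray bars span the 2 NT libraries, triangles are FUBP1 or FUBP1-D and diamonds CIC or CIC-D. In the library labelled CIC, Pdgfra (-2.19) and Olig1 (-1.33) lie below both NT libraries and Ptprz1 (1.70) above them, and in FUBP1-D Olig1 (1.46) lies above.

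Genes with the closest profiles were, for Olig2, Lsmd1 (0.24 log2 units) and Kcnc1 (0.24). For Nkx2-2 they were Nav2 (0.21) and Tmem55b (0.22), and for Cspg4, after Car12, A230050P20Rik (0.24) and Usp27x. For Pdgfra they were Met, another receptor tyrosine kinase (0.19), Slain1 (0.20) and Gnaz (0.27). Met, too, was lowest in CIC (3.67 FPKM, against 28.5 in TRC and 17.4 in GFP). For Ptprz1 they were Plxnc1 (0.21), Cttnbp2 (0.23) and Myo16. For Cnp they were Synpo2 (0.25), Pgf and Kctd21, and for Mbp Naprt1 (0.22), Echdc2 and Epb4.1l2. These are among the nearest 3 of all kept rows by root mean square difference of centred log2 profiles over the 8 libraries, which share state and construct.

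Other genes of the lineage's steps were read from 6 lists, whose shares of genes called on differentiation stand beside 38.8% over all rows. Within the NT arm genes passed in only 2 of the 6, those of growth signals and of Ptprz1 and Cspg4 partners, and 0 passed in the other lists. Of 38 genes of precursors and specification, 28 were kept, and 5 rose and 3 fell on differentiation (28.6%, median 0.23). Zfp36l1, an RNA-binding protein that favours oligodendrocyte over astrocyte fate, rose from between 34.0 and 92.7 FPKM to between 176 and 301 FPKM (log2 change 2.27, SE 0.28, adjusted p = 0.00165). Gpr37l1, Lrp1, Cspg5 and Chd7, a chromatin remodeller that works with Sox10, also rose, and Xylt1, Sox11 and Epn2 fell. Sox8, a relative of Sox10, stood between 32.3 and 71.2 FPKM in all 8 libraries. Sox10 itself was thus near 0 where its relative was not.

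Of 28 regulators of maturation, 19 were kept, and 5 rose and 5 fell (52.6%, median -0.01). Zfp488, a partner of Olig2 in maturation, rose from between 3.66 and 5.33 FPKM to between 10.3 and 13.7 FPKM (1.32, SE 0.17, adjusted p = 0.0019). Tcf7l2, Lingo1, Tsc22d4 and Dll1 also rose. Hes1 and Jag1 of the Notch pathway, which holds precursors back, fell. Other genes of that pathway went the other way or did not pass. Dll1 rose (1.58, adjusted p = 0.0312), as did Notch3 (1.11, adjusted p = 0.0469), and Notch1 did not pass (0.11, adjusted p = 0.6). The histone deacetylases Hdac1 (-1.43, SE 0.21, adjusted p = 0.00264) and Hdac2 and their partner Yy1 fell. Myrf, the factor that switches on myelin genes in maturing cells, passed 1 FPKM only in FUBP1 (1.14) and was not tested.

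Of 53 genes of newly formed oligodendrocytes and myelin, 33 were kept, and 11 rose and 6 fell (51.5%, median 0.31), while 19 were under 1 FPKM in every library. Gpr37, a receptor of maturing oligodendrocytes, stood between 0.297 and 1.51 FPKM in the proliferating libraries, and at 11.4 FPKM in 7, 0.745 in GFP-D, 20.6 in CIC-D and 5.88 in FUBP1-D (log2 change 2.096, SE 0.59, adjusted p = 0.0273). It rose, but GFP-D stayed within the proliferating range. Cryab, Ndrg1 and Plekhb1 also rose, and Anln, Trf, Sgk1, Qdpr and Ugt8a fell, Ugt8a being the enzyme of the myelin lipid galactosylceramide. Mag, Mog and Mobp, late myelin genes, peaked at 0.0291, 0.0283 and 0.0347 FPKM, and Gpr17 and Enpp6, which mark newly formed oligodendrocytes, at 0.326 and 0.0637 FPKM. Pmp22 and Cdh19 are made by Schwann cells. Of 13 markers of Schwann cells and neural crest 9 were kept, Pmp22 and Cdh19 among them, so most of the list was present. Cdh19 stood between 2.98 and 33.7 FPKM in proliferating and between 2.89 and 33.0 FPKM in differentiating libraries, highest in CIC and CIC-D. Foxd3 and Erbb3 were under 1 FPKM everywhere. The list summed to between 104 and 353 FPKM in proliferating and between 99.1 and 155 FPKM in differentiating libraries.

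**Figure D4:**
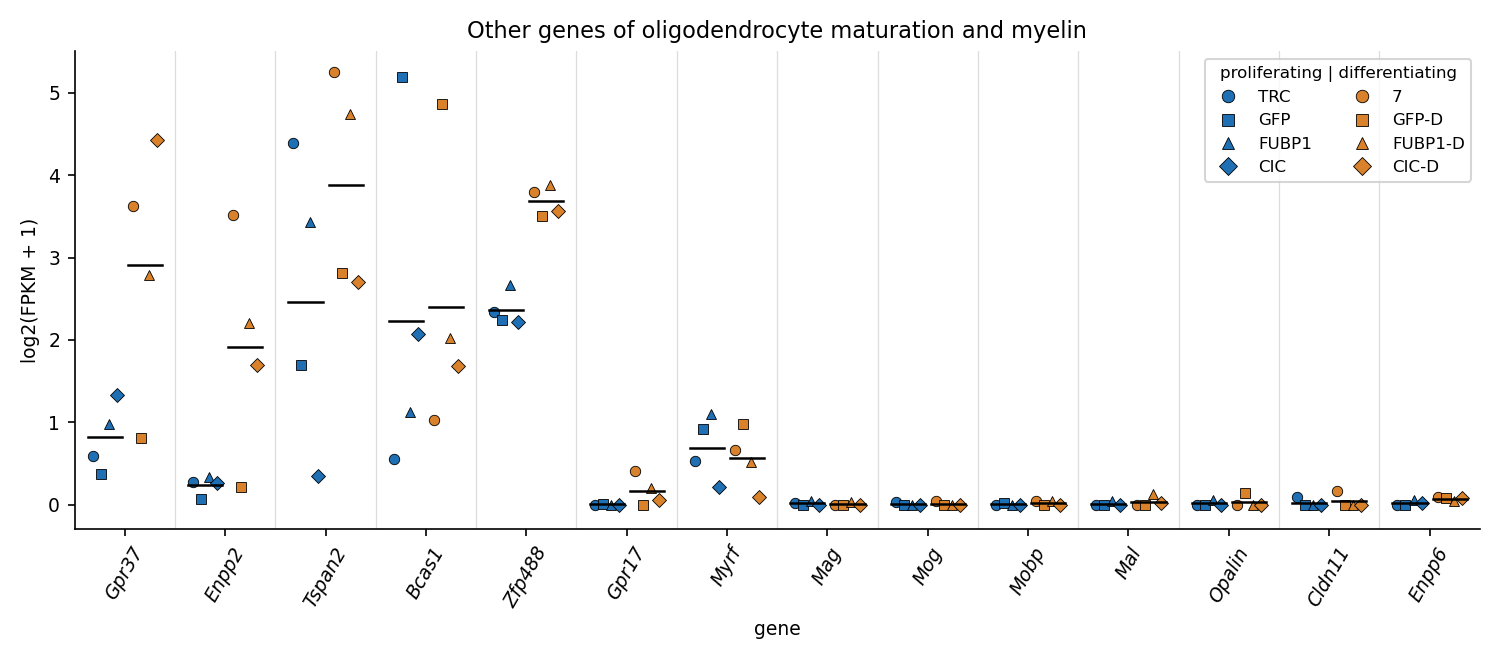
Levels of other genes of oligodendrocyte maturation and myelin on the log2(FPKM + 1) axis, 1 symbol per library (blue proliferating, orange differentiating), with a bar at the mean of the 4 libraries of a state. All differentiating libraries lie above all proliferating ones for Zfp488, and Gpr37 is highest in CIC-D. Bcas1 and Tspan2 split the libraries within both states, and Mag, Mog and Mobp stay near 0.

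Of 30 genes of PDGF and other growth signals, 22 were kept, and 9 rose and 0 fell (40.9%, median 0.87). Fgfr3, a fibroblast growth factor receptor, rose from between 3.67 and 20.2 FPKM to between 22.7 and 63.5 FPKM (2.38, SE 0.40, adjusted p = 0.00434). It is also on the astrocyte list, whose sum is given above. Thra, a thyroid hormone receptor, rose from between 33.7 and 62.7 FPKM to between 109 and 167 FPKM (1.504, SE 0.19, adjusted p = 0.0017), and Ptch1, Erbb4 and Cntf also rose. Pdgfa, the ligand of Pdgfra, was present in every library, between 16.2 and 47.9 FPKM. Within the NT arm Cntf, Erbb4 and Il6st passed.

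Of 24 partners of Ptprz1 and Cspg4, 20 were kept, and 8 rose and 2 fell (50%, median 0.35). Cntn1, a neural adhesion protein that binds Ptprz1, stood between 1.08 and 13.7 FPKM in proliferating and between 6.71 and 20.7 FPKM in differentiating libraries and rose by 1.84 (SE 0.42, adjusted p = 0.0135). Itga3, Plat, Ncam1 and Ptprs also rose. Tnc, a matrix ligand of Ptprz1, fell (log2 change -3.57, SE 0.85, adjusted p = 0.0158) and was highest in CIC (1249 FPKM, against 14.1 in TRC and 192 in GFP), the library with the most Ptprz1. Itgb1 fell as well. Ptn, a secreted ligand of Ptprz1, stood between 64.8 and 211 FPKM. Cntn1 and Plat also passed within the NT arm. Lgals3, a galectin, was the only gene of the 6 lists to pass with the CIC label, where it fell (1.201 FPKM in CIC and 1.55 in CIC-D, against 47.4 to 273 FPKM in the NT libraries, log2 change -5.32, SE 0.62, adjusted p = 0.0377).

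All 23 genes of cholesterol and lipid supply, which growing myelin draws on, were kept, and 2 rose and 9 fell (47.8%, median -0.62). The synthesis enzymes Fdps, Cyp51 and Elovl6 were among those that fell. Apoe and Abca1, which carry cholesterol between and out of cells, rose. With the FUBP1 label no gene of the 6 lists passed.

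Some genes of the lists split the libraries along lines other than state, as Cspg4 did (chosen after their values were seen). Cspg4 and Tspan2 had the same split, with TRC, 7, FUBP1 and FUBP1-D above GFP, GFP-D, CIC and CIC-D. Among differentiating libraries Cnp and Mbp also had 7 and FUBP1-D above GFP-D and CIC-D. For Cspg4 and Tspan2, the difference of the CIC label from the NT mean cannot be told apart from this split. Bcas1, a gene of newly formed oligodendrocytes, stood at 35.5 FPKM in GFP and 28.1 FPKM in GFP-D and at no more than 3.21 FPKM elsewhere. Tspan2, a tetraspanin of the lineage, stood at 19.9 FPKM in TRC, 9.76 in FUBP1, 37.0 in 7 and 25.7 in FUBP1-D, and at no more than 6.00 FPKM in the others. Pdgfrb, a pericyte gene, stood at 5.59 FPKM in GFP-D and 0.407 FPKM in GFP and was listed at 0 in the other 6. Over the kept rows the correlation of log2 values was 0.980 between TRC and FUBP1 and 0.914 between TRC and GFP, and 0.959 between 7 and FUBP1-D and 0.927 between 7 and GFP-D, given as a description across genes. The construct names, the hairpin labels and any difference of culture cannot be told apart for Cspg4, Bcas1 and Tspan2.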

How the data were processed

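RNA of 8 libraries was analysed from a single deposited table of FPKM, which the authors made. The submitters' processing notes name Cufflinks 2.1.1, TopHat2 2.0.11, cutadapt and bcl2fastq 2.17 on build mm9; settings, annotation and strand use: not given in the sources used here. The table's locus starts were taken to count from 0, since end minus start equals the RefSeq gene length at 7034 loci and is 1 short of it at 514, and 1 was added. FPKM values were used without rescaling as log2(FPKM + 1), and 11968 of 20793 rows, those reaching 1 FPKM in no fewer than 2 libraries, entered the tests.

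Under R 4.3.3, limma 3.58.1 (two-sided, empirical Bayes, trend) was fitted to all kept rows, with Benjamini-Hochberg adjustment and a threshold of 0.05. State and hairpin label came from an additive model (4 residual degrees of freedom). The NT contrast and the differences between arms came from 6 group means (2 residual degrees of freedom). The script was tested on simulated data. The genes, lists and tests were chosen with earlier results of these data known. By the naming rule all 9 genes are named in each comparison, with the called genes of largest change in each of 6 lists (up to 5 each way) and a set of myelin genes; values of other list genes were picked after they were seen. A further 10 marker lists were summed; those of microglia (2.64 to 7.74 FPKM) and endothelium (0.438 to 4.72 FPKM) were low. Alternatives covered pseudocount, filter, scaling, trend, model and each library left out. In the additive model, leaving out either library of a hairpin arm gives the same estimate for state. Counts of alternatives passed thus hold fits that are not independent. FPKM carry no fragment counts, so the depth behind each value is unknown and no counting interval was given. Sequences are RefSeq's for GRCm38.p6. Some genes of these lists and profiles are not reported here.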

Additional observations from a re-analysis of the deposited data

Results flagged for a closer look

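Sox10 in the differentiating libraries had 1 sample far from the others: FUBP1-D held 0.03291 FPKM while 7, GFP-D and CIC-D were listed at 0. The gap took up the whole range of the group, as any value above 0 would beside 3 libraries at 0, so the criterion carries no weight here. The level is far below 1 FPKM, and the depth behind it is unknown.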

How the results depend on the processing

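Counts of genes called moved with the model, the filter and single libraries. On differentiation over all arms, 4647 genes passed; group means gave 2906, and leaving out each library gave 2477 to 4857. Of the 8 oligodendrocyte lineage genes tested, 3 passed; with GFP and GFP-D as an arm of their own 5 passed, and leaving out each library gave 1 to 4. Within the NT arm 175 genes passed; a pseudocount of 5 or no filter gave 0, at least 5 FPKM 323, quantile normalization 277, and leaving out each library 0 to 442. Of the lineage genes 0 passed there, 1 with a pseudocount of 0.1 or with median-of-ratios scaling, and 2 with at least 5 FPKM. With the CIC label 13 genes passed; a pseudocount of 0.1 gave 35, a pseudocount of 5 gave 4, no filter 2, at least 5 FPKM 8, group means 1, GFP and GFP-D as an arm of their own 92, and leaving out each library 2 to 18.

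The following changed sign. For Cspg4 on differentiation (0.15) quantile normalization gave -0.089, and leaving out each library gave -0.209 to 0.475, and within the NT arm -0.603 to 1.107. Pdgfra within the NT arm ranged from -0.424 to 0.009 with a library left out. With the FUBP1 label, a pseudocount of 5 and quantile normalization gave -0.013 and -0.073 for Cspg4 and -0.003 and -0.085 for Mbp. Leaving out each library gave -0.242 to 0.443 for Cspg4, -0.308 to 0.406 for Mbp, -0.145 to 0.183 for Pdgfra and -0.318 to 0.571 for Cnp. With the CIC label, quantile normalization gave -0.013 for Olig2, and leaving out each library gave -0.187 to 0.283 for Olig2, -1.092 to 0.272 for Olig1 (positive without CIC) and -0.666 to 0.047 for Mbp. For the difference of the FUBP1 arm's change from the NT change, a pseudocount of 0.1 gave 0.060 for Cspg4, and leaving out each library gave -0.993 to 0.717 for Cspg4, -0.586 to 1.197 for Mbp and -0.446 to 0.199 for Ptprz1. For that of the CIC arm, quantile normalization and median-of-ratios scaling gave -0.101 and -0.008 for Cnp, a pseudocount of 0.1 gave 0.751 for Mbp, and leaving out each library gave -1.114 to 0.597 for Cspg4, -0.606 to 0.655 for Cnp and -1.133 to 0.650 for Mbp. Alternatives for these differences were chosen after seeing the data. The cause was not tested for any of these. No paired analysis by replicate number was possible because the labels give no such numbers. The fit with GFP and GFP-D as an arm of their own takes TRC with 7 and GFP with GFP-D as blocks, a pairing by name for GFP and GFP-D that the labels do not state; Nkx2-2 and Mbp were the genes it added. Depth is unknown, so how far it limits the low values of Sox10, Mbp and Cspg4 cannot be stated.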
